A study of Mus musculus with 6 samples.

Results

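The extracellular matrix genes described here are the collagens, the laminin chains and 9 further basement membrane genes of mouse epidermal keratinocytes. They were chosen by name: every symbol of the collagen alpha chain or laminin chain form, without Col17a1, plus Nid1, Nid2, Hspg2, Agrn, Npnt, Fbln1, Fras1, Frem1 and Frem2. The rule found 63 of the 30349 genes in the deposited table, which are 43 collagens, 11 laminin chains and the 9 others. RNA was measured in 3 cultures of the p63 alphaKO genotype (replicates 9, 10 and 11) and 3 wild type cultures (replicates 13, 14 and 15), with no other allele, strain or agent named in the sources used here. All were primary epidermal cells of mice at postnatal day 2, grown for 5 to 6 days to confluence in medium with 0.05 mM calcium, 4% chelated serum and 2.5 ng/mL EGF. Which part of Trp63 is absent, in which cells, and whether libraries were made from different animals is not given in the labels, so the p-values measure only the spread between these libraries. The comparison asks what the p63 alphaKO genotype changes in the RNA of these keratinocytes.

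The basement membrane is the thin sheet of matrix on which basal keratinocytes sit. Laminins are trimers of an alpha, a beta and a gamma chain. Keratinocytes make a laminin with the alpha3 and beta3 chains that binds the integrins of the hemidesmosome, and type VII collagen anchors the sheet to the dermis. Type IV collagen forms a network of its own, which nidogens and the proteoglycan perlecan link to the laminins. The fibrillar collagens of types I, III and V are made mainly by dermal fibroblasts. The transcription factor p63, encoded by Trp63, controls many adhesion genes of stratified epithelia.

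The libraries held 1699716 to 3215333 reads over the genes of the table, and a level is given in CPM, the reads of a gene per 1000000 reads of its library. The assay reads the 3' ends of transcripts, so a value is 1 level per gene and does not tell isoforms apart. For a gene with no read the upper limit, set at 3 reads, is 1.00 to 1.76 CPM across the p63 alphaKO libraries and 0.93 to 0.95 CPM across the wild type libraries. Trp63 itself was at 49.78, 59.32 and 57.01 CPM in p63 alphaKO, against 38.02, 53.16 and 48.92 CPM in wild type. Since the deleted part is not stated and the reads come from the 3' end, this level does not check the labels. The keratinocyte markers were abundant in every library: 10 of them summed to 27163 to 39003 CPM in p63 alphaKO and 31795 to 37225 CPM in wild type. The p63 alphaKO replicate 11, the shallowest library, and wild type replicate 15 held the lowest values most often. Of the 33 matrix genes that averaged at least 1 CPM, 13 were lowest in p63 alphaKO replicate 11 and 11 in wild type replicate 15, with ties counted in each library. Markers of Schwann cells and nerve (8 genes, 76.56 to 170.63 CPM in all) and of smooth muscle and pericytes (8 genes, 58.77 to 92.64 CPM in all) were present, and those of immune cells (8 genes) summed to at most 1.37 CPM.

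Of the 63 genes, 33 passed that minimum and were tested, 19 had a read but fell under it, and 11 had no read in any library. No matrix gene passed the test (limma on log2(CPM + 1), adjusted p under 0.05 over all genes tested). Over all 11716 genes tested, 5 passed, or 0.0427% (0.0341% higher and 0.00854% lower in p63 alphaKO). edgeR and DESeq2, run on the reads recovered from the CPM, called 0 matrix genes as well, against 2 genes (0.0171%) and 18 genes (0.157%) in all. At an unadjusted p under 0.05 there were 6 matrix genes, all higher in p63 alphaKO, among them Col8a1, Lamb1, Col27a1, Col18a1 and Col7a1. That is 18.2% of the 33 tested, against 6.36% of all genes tested (3.01% higher and 3.35% lower). The number over all genes was 745 in this fit. Without p63 alphaKO replicate 10 there were 4 matrix genes (all genes 882), without wild type replicate 15 also 4 (803), and without the variance trend 4 (827). By edgeR there were 5 (all genes 721) and by DESeq2 5 (649). Without the filter there were 9 of 52 matrix genes, against 888 of 15588 genes, and these 9 include Col5a2, which lay lower (log2 fold change -1.09). Of the 33, 16 lay higher and 17 lower (median log2 fold change -0.03, and 0.25 without p63 alphaKO replicate 11), and over all genes tested 50.7% lay higher (median 0.0064). Fold changes throughout are p63 alphaKO minus wild type on the log2(CPM + 1) scale. The added 1 can draw the change of a low gene toward 0, but these values were not always the smaller. Lama4 was at 0.80, against 1.52 by edgeR, and Col1a2 was at -0.61, against -0.24 by edgeR.

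For 6 of the 33 genes the lowest p63 alphaKO library lay above the highest wild type library, among them Lamb1, Col8a1, Col18a1, Col4a5 and Col27a1. None lay wholly below. These are 18.2% of the tested matrix genes, where 11.5% of all genes tested did not overlap between the groups, 6.45% higher and 5.09% lower. With fewer libraries more genes separate. The filter is applied anew in each such fit, so the number of matrix genes behind a count can differ from 33. Without p63 alphaKO replicate 9 the count was 9 (all genes 20.1%), without p63 alphaKO replicate 11 it was 6 (25.1%), and without wild type replicate 13 it was 8 (20.4%). Without p63 alphaKO replicate 10 the count was 12 (all genes 22.5%), without wild type replicate 14 it was 10 (17.5%), without wild type replicate 15 it was 11 (24.6%), and without both p63 alphaKO replicate 11 and wild type replicate 15 it was 12 (40.4%).

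To place these separated genes, the 250 bases before each start in RefSeq (GRCm38.p6) are given, and those for Col4a6, which lies head to head with Col4a5. Letters run 5′ to 3′ on the strand of the gene, and capitals mark GC boxes (GGGCGG on either strand, so also CCGCCC).
Lamb1 (chr12:31265043-31265292, plus strand): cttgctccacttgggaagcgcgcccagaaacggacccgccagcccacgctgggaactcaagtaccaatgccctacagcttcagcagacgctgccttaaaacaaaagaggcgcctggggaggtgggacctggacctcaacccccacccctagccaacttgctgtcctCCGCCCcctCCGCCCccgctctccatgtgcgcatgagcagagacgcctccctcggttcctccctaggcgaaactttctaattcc
Col8a1 (chr16:57754738-57754987, minus strand): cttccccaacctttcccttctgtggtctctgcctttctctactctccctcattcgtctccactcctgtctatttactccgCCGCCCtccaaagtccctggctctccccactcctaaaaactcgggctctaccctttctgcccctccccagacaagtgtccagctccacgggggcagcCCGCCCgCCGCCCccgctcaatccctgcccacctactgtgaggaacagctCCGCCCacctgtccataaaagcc
Col18a1, upstream start (chr10:77166531-77166780, minus strand): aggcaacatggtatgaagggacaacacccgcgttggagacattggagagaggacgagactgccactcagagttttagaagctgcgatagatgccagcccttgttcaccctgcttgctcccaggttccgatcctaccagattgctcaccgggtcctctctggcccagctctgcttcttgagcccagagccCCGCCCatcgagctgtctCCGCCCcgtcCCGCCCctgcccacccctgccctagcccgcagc
Col18a1, downstream start (chr10:77113706-77113955, minus strand): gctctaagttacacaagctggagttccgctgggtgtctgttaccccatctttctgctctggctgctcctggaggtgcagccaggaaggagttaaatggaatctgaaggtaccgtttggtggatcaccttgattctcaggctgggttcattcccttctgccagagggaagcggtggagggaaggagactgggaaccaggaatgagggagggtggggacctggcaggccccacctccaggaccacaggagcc
Col27a1 (chr4:63215162-63215411, plus strand): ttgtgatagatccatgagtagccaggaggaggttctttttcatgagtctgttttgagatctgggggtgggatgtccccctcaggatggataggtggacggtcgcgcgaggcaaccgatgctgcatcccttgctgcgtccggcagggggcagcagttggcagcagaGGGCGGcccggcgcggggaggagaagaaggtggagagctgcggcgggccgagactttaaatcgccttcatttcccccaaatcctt
Col4a5 (chrX:141475169-141475418, plus strand): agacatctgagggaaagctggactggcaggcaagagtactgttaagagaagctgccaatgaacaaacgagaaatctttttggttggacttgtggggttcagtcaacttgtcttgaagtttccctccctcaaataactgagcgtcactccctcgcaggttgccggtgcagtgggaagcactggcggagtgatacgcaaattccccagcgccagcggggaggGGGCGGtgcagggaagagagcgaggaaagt
Col4a6 (chrX:141474077-141474326, minus strand): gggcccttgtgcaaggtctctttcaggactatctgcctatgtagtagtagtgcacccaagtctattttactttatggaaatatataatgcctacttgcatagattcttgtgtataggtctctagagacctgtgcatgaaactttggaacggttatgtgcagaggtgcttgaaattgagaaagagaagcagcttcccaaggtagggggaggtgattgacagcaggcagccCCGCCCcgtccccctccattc

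Col8a1 held 4 GC boxes in its window, the upstream start of Col18a1 held 3, and Lamb1 held 2. Col27a1, Col4a5 and Col4a6 held 1 each, and the downstream start of Col18a1 held none. The level of Col18a1 does not tell its starts apart. Of the 33 tested genes, 24 had windows in RefSeq, 30 in all, and 20 of these (66.7%) held a GC box. That compares with 32.7% of the 32851 windows of all genes and 58.5% of the 11649 windows of genes tested. AP-1 sites (TGANTCA, either strand) were found in 1 of the 30 windows, that of Col6a1, against 6.75% of all windows and 4.70% of those of genes tested. An exact p53-family half-site was found in 1 of the 30, that of Nid1, against 7.13% of all windows and 5.92% of those of genes tested. A match of letters is not a binding site, and its absence says nothing of binding.

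Of the 7 epidermal basement membrane laminins tested, 4 lay higher and 3 lower in p63 alphaKO (median log2 fold change 0.39), and none passed the test. The median was 0.25 without p63 alphaKO replicate 9, 0.24 without wild type replicate 15 and 0.23 without both p63 alphaKO replicate 11 and wild type replicate 15. Lamb3 and Lama3 both had higher means in p63 alphaKO keratinocytes, with groups that overlapped. Lamb3, for the beta3 chain (GRCm38 chromosome 1, 193207699 to 193343878, plus strand), was at 117.36, 82.31 and 93.46 CPM in p63 alphaKO replicates 9, 10 and 11, against 62.84, 88.91 and 71.47 CPM in wild type cultures 13, 14 and 15 (log2 fold change 0.39, SE 0.25, 95% interval -0.13 to 0.91, limma adjusted p = 0.864). Lama3, for the alpha3 chain, was at 83.57, 61.32 and 72.30 CPM in p63 alphaKO, against 52.47, 70.25 and 43.84 CPM in wild type (0.39, SE 0.26, 95% interval -0.16 to 0.94, limma adjusted p = 0.876). In both genes wild type replicate 14 lay above p63 alphaKO replicate 10, and it was the highest wild type library for both.

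The other epidermal laminin chains differed in direction. Lamb1, the beta1 chain (chromosome 12, 31265234 to 31329644, plus strand), was at 36.53, 54.99 and 37.62 CPM in p63 alphaKO, against 22.31, 31.71 and 17.79 CPM in wild type. The groups did not overlap, and the difference was 1.78-fold (log2 fold change 0.83, SE 0.30, 95% interval 0.20 to 1.47, limma adjusted p = 0.716). Lama5 and Lamc1, the alpha5 and gamma1 chains that beta1 can pair with, did not stand on that side. Lama5 was at 45.21, 35.32 and 47.02 CPM in p63 alphaKO, against 40.53, 54.71 and 37.80 CPM in wild type (-0.05, 95% interval -0.62 to 0.52). Lamc1 was at 17.35, 12.33 and 4.70 CPM in p63 alphaKO, against 20.11, 13.99 and 12.71 CPM in wild type (-0.55, 95% interval -1.43 to 0.34). Without p63 alphaKO replicate 11 its log2 fold change was -0.06. Lamb2, the beta2 chain, was also lowest there, at 20.55, 15.00 and 5.88 CPM in p63 alphaKO, against 14.45, 21.14 and 12.07 CPM in wild type (-0.30, and 0.17 without replicate 11).

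**Figure D1:**
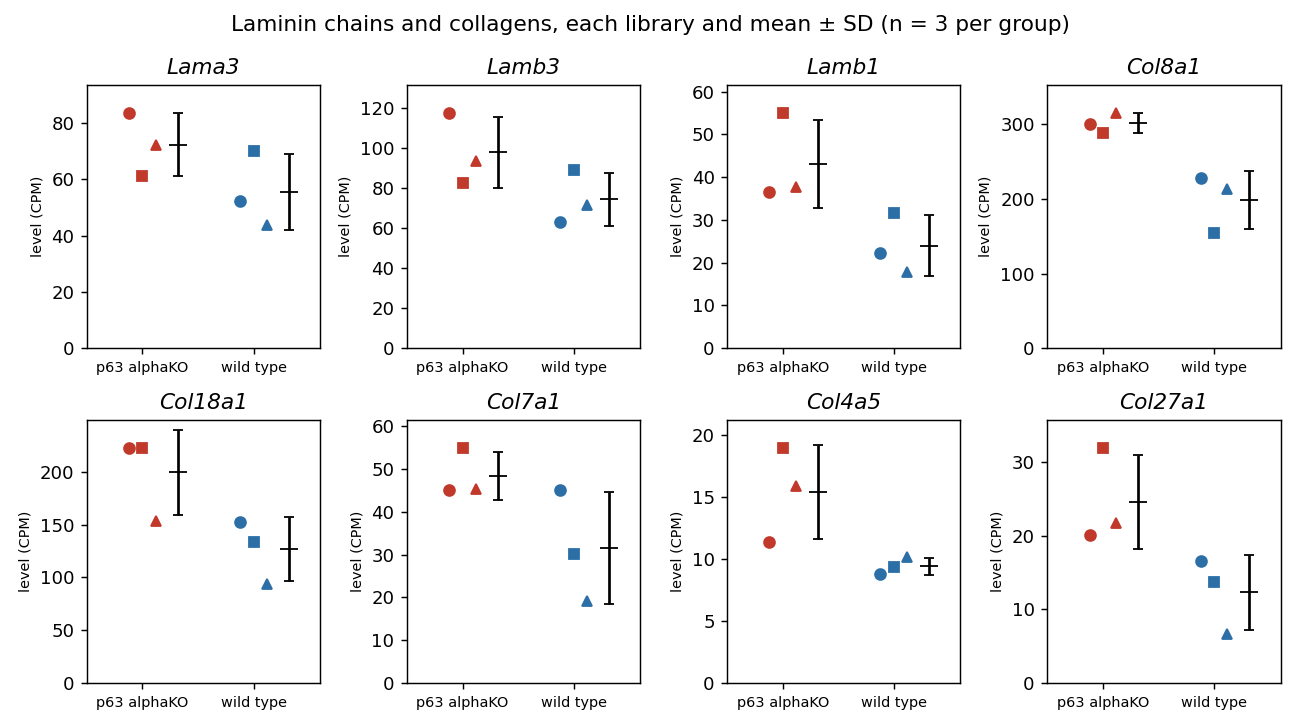
Level in CPM (vertical axis, from 0) of 3 laminin chains and 5 collagens in each library, p63 alphaKO in red on the left (circle, square and triangle for replicates 9, 10 and 11) and wild type in blue on the right (replicates 13, 14 and 15), with the mean and SD of 3 libraries in black. The groups separate for Lamb1, Col8a1, Col18a1, Col4a5 and Col27a1 and overlap for Lama3, Lamb3 and Col7a1.

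The remaining laminin chains were near the limit of detection. Lama4, an alpha chain typical of vessels, was the 1 other chain tested, with 14 reads in the p63 alphaKO libraries. It was at 0.46, 3.33 and 1.76 CPM in p63 alphaKO, against 0.31, 1.55 and 0.00 CPM in wild type (0.80, 95% interval -0.60 to 2.19). Endothelial markers were near 0 in the same libraries: the 10 markers summed to 4.00 to 5.29 CPM in p63 alphaKO and 0.62 to 5.03 CPM in wild type, with Kdr, Emcn, Cldn5 and Esam at 0 reads throughout. The 2 that were tested both lay higher in p63 alphaKO, with groups that overlapped. Pecam1 was at 0.69 (limma adjusted p = 0.919) and Flt1 at 0.43 (limma adjusted p = 0.957). The part of endothelial cells in the Lama4 values was not tested. Lama1, an alpha chain of early epithelia, had 8 reads in p63 alphaKO, in replicates 9 and 11, and 0 in wild type, with an exact 95% interval of the ratio of rates that starts at 2.36. Lamc3 had 3 reads in p63 alphaKO, against 4 in wild type, and Lama2, of muscle basement membrane, had 1 read in each group. Intervals and bounds on reads cover counting error only.

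The network and anchoring collagens lay mostly higher in p63 alphaKO, 6 of 7 tested with a median log2 fold change of 0.62 and none past the test. Col8a1, a short-chain collagen of vessel walls and corneal basement membrane (chromosome 16, 57624258 to 57754737, minus strand), was at 300.94, 288.92 and 315.05 CPM in p63 alphaKO, against 228.42, 154.81 and 212.82 CPM in wild type. The p63 alphaKO libraries lay close together and above all wild type libraries, with a coefficient of variation of 4.34%, against 19.5% in wild type. The difference was 1.54-fold (log2 fold change 0.62, SE 0.22, 95% interval 0.15 to 1.08, limma adjusted p = 0.716). Col18a1, whose C-terminal fragment is endostatin (chromosome 10, 77052178 to 77166548, minus strand), was at 222.85, 222.61 and 153.41 CPM in p63 alphaKO, against 153.02, 133.67 and 93.71 CPM in wild type. The gap between the lowest p63 alphaKO and the highest wild type library was under 1 CPM, and the difference was 1.58-fold (0.66, SE 0.25, 95% interval 0.13 to 1.18, limma adjusted p = 0.729).

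These collagens are also made by vessel wall cells, and markers of smooth muscle and pericytes lay on both sides. The 8 markers summed to 65.31, 75.64 and 69.37 CPM in p63 alphaKO, against 73.84, 92.64 and 58.77 CPM in wild type. Acta2, a smooth muscle actin, was at 25.12, 19.66 and 24.69 CPM in p63 alphaKO, against 13.20, 12.75 and 11.44 CPM in wild type (0.84, limma adjusted p = 0.729). Its groups did not overlap, as 1 of the 4 markers tested (25%), against 11.5% of all genes tested. Mcam was at 24.20, 41.32 and 22.34 CPM in p63 alphaKO, against 49.64, 64.97 and 34.94 CPM in wild type (-0.76, limma adjusted p = 0.758). Of the 4 markers tested 3 lay higher and 1 lower and none passed the test, Cnn1 was at 0 reads throughout, and Myh11 was at 0 reads in p63 alphaKO. In bulk cultures fewer cells of a type and less RNA per cell cannot be told apart, and the part of such cells in the collagen values was not tested.

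Col7a1, the anchoring fibril collagen (chromosome 9, 108953586 to 108984875, plus strand), was at 45.21, 54.99 and 45.26 CPM in p63 alphaKO, against 45.24, 30.15 and 19.06 CPM in wild type. Wild type replicate 13 lay level with p63 alphaKO replicates 9 and 11, so the groups overlapped (log2 fold change 0.68, SE 0.31, 95% interval 0.03 to 1.34, limma adjusted p = 0.767). Without wild type replicate 15, its lowest library, the log2 fold change was 0.38. Col17a1, the transmembrane collagen of the hemidesmosome that the rule leaves out, was at 742 ± 236 CPM in p63 alphaKO and 804 ± 88.8 CPM in wild type (SD, n = 3 each).

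Of the type IV collagens, Col4a5 separated between the groups and its head-to-head neighbour Col4a6 did not. Col4a5 (chromosome X, 141475385 to 141689234, plus strand) was at 11.42, 18.99 and 15.87 CPM in p63 alphaKO, against 8.80, 9.33 and 10.16 CPM in wild type (log2 fold change 0.63, SE 0.35, 95% interval -0.11 to 1.37, limma adjusted p = 0.816). The wild type libraries lay close together and the p63 alphaKO libraries spread above them. Col4a6, whose start lies 1308 bases away on the other strand, was at 5.02, 3.67 and 1.18 CPM in p63 alphaKO, against 5.66, 3.73 and 1.59 CPM in wild type (-0.14, 95% interval -1.30 to 1.02). It was lowest in p63 alphaKO replicate 11 and wild type replicate 15, which lay almost level. Whether the pair differ from each other in their change was not tested.

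Col4a1 and Col4a2, the ubiquitous pair, lie head to head on chromosome 8, and their exons share 22 bases on opposite strands. Col4a1 was at 4.11, 3.33 and 6.47 CPM in p63 alphaKO, against 2.51, 4.35 and 5.08 CPM in wild type (0.18, 95% interval -0.81 to 1.16). Col4a2 was at 10.50, 6.33 and 8.82 CPM in p63 alphaKO, against 2.83, 5.28 and 12.39 CPM in wild type (0.45, 95% interval -0.54 to 1.44, and 0.03 to 0.94 over the fits without 1 library). In wild type both were highest in replicate 15, the library with the highest sum of muscle markers. The 10 muscle markers summed to 36.07, 39.33 and 95.22 CPM in the p63 alphaKO libraries 9, 10 and 11, against 103.37, 95.13 and 686.77 CPM in wild type libraries 13, 14 and 15. Their part in these values was not tested. Col4a3 and Col4a4, the pair of kidney and lung basement membranes, were also near 0: Col4a3 had 1 read in p63 alphaKO, against 0 in wild type, and Col4a4 had 2 reads in p63 alphaKO, against 9 in wild type. The 6 type IV genes summed to 31.05, 32.65 and 33.52 CPM in p63 alphaKO, against 19.80, 23.93 and 30.81 CPM in wild type. Col15a1 had 0 reads in p63 alphaKO, against 3 in wild type, and Col8a2 and Col10a1 had none.

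**Figure D2:**
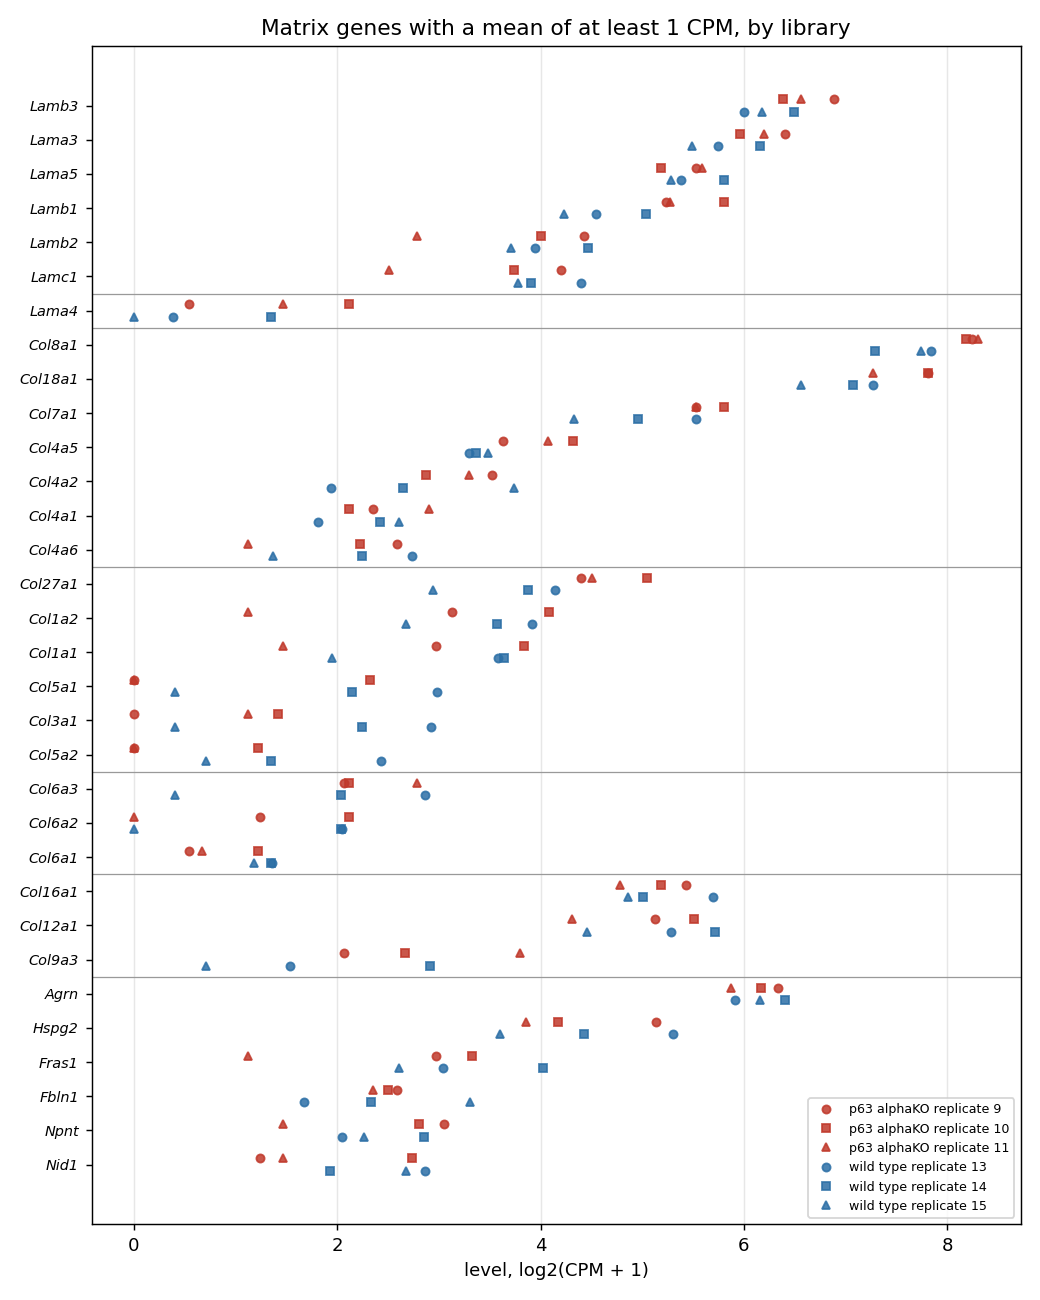
Level of 32 of the tested matrix genes (horizontal axis, log2(CPM + 1)) in every library, p63 alphaKO in red above wild type in blue, with a symbol per replicate. Lines divide the roles, from the epidermal laminins at the top through other laminins, network, fibrillar, type VI and other collagens to the linkers. The triangles, p63 alphaKO replicate 11 and wild type replicate 15, are the lowest of their groups for Col1a1, Col1a2, Col12a1, Col16a1 and Hspg2.

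Linkers and proteoglycans of the basement membrane showed no separated gene, with 2 of 6 tested higher and 4 lower (median log2 fold change -0.04, and -0.32 to 0.10 over the fits without 1 library). Agrn, encoding agrin, a heparan sulfate proteoglycan, was at 79.91, 70.98 and 57.60 CPM in p63 alphaKO, against 59.07, 83.62 and 70.52 CPM in wild type (log2 fold change -0.03, 95% interval -0.56 to 0.50, limma adjusted p = 0.997). Hspg2, encoding perlecan, varied within both groups, at 34.25, 17.00 and 13.52 CPM in p63 alphaKO, against 38.33, 20.52 and 11.12 CPM in wild type (-0.05, 95% interval -0.94 to 0.84). Nid1, the linker between laminin and type IV collagen, was at 1.37, 5.67 and 1.76 CPM in p63 alphaKO, against 6.28, 2.80 and 5.40 CPM in wild type (-0.67, 95% interval -1.79 to 0.44). Nid2, the other nidogen, had 7 reads over the p63 alphaKO libraries and 1 over the wild type libraries, a ratio of rates of 9.70 (exact 95% interval 1.25 to 437, on pooled reads). Of its 7 reads, 6 were in p63 alphaKO replicate 9.

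Among the ligands and Fraser complex genes, Npnt, encoding nephronectin, was at 7.31, 6.00 and 1.76 CPM in p63 alphaKO, against 3.14, 6.22 and 3.81 CPM in wild type (0.05, 95% interval -1.02 to 1.13). Fbln1, encoding fibulin-1, was at 5.02, 4.67 and 4.11 CPM in p63 alphaKO, against 2.20, 4.04 and 8.89 CPM in wild type (0.04, 95% interval -0.99 to 1.07). Fras1, which holds epidermis to dermis in the embryo, was at 6.85, 9.00 and 1.18 CPM in p63 alphaKO, against 7.23, 15.23 and 5.08 CPM in wild type (-0.75, 95% interval -1.92 to 0.42), and its log2 fold change was -0.07 without p63 alphaKO replicate 11. Of its partners, Frem2 had 3 reads in p63 alphaKO, against 0 in wild type, and Frem1 had none.

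Of the 6 fibrillar collagens tested, 1 lay higher and 5 lower (median log2 fold change -0.81). Leaving out p63 alphaKO replicate 10 put the median at -1.28, and leaving out replicate 11 at -0.20. Leaving out wild type replicate 15 put it at -1.22, and replicate 13 at -0.34. It was -0.34 with a pseudocount of 5, -0.50 without a filter and -0.30 with a minimum mean of 5 CPM. Col27a1, a fibrillar collagen best known from cartilage (chromosome 4, 63214004 to 63334991, plus strand), was at 20.09, 31.99 and 21.75 CPM in p63 alphaKO, against 16.65, 13.68 and 6.67 CPM in wild type. Its groups did not overlap, and it was 2.00-fold higher (log2 fold change 1.00, SE 0.37, 95% interval 0.22 to 1.77, limma adjusted p = 0.729). Without wild type replicate 15, its lowest library, the log2 fold change was 0.64.

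The 5 tested fibrillar collagens of types I, III and V, products of fibroblasts, lay lower on average in p63 alphaKO with wide intervals. Col5a3, a type V chain that was not tested, had 8 reads in p63 alphaKO, against 0 in wild type. Col1a1 was at 6.85, 13.33 and 1.76 CPM in p63 alphaKO, against 11.00, 11.50 and 2.86 CPM in wild type (-0.30, 95% interval -1.52 to 0.93). Col1a2 was at 7.76, 16 and 1.18 CPM in p63 alphaKO, against 14.14, 10.88 and 5.40 CPM in wild type (-0.61, 95% interval -1.86 to 0.64). Both genes were lowest in p63 alphaKO replicate 11 and next lowest in wild type replicate 15. With p63 alphaKO replicate 11 left out, the log2 fold changes were 0.35 for Col1a1 and 0.22 for Col1a2. Col3a1 was at 0.00, 1.67 and 1.18 CPM in p63 alphaKO, against 6.60, 3.73 and 0.32 CPM in wild type (-1.01, 95% interval -2.46 to 0.44). Col5a1 was at 0.00, 4.00 and 0.00 CPM in p63 alphaKO, against 6.91, 3.42 and 0.32 CPM in wild type (-1.07, 95% interval -2.67 to 0.53). Col5a2, which lies 24614 bases from Col3a1, tail to tail, had 4 reads in p63 alphaKO, all in replicate 10, and was at 4.40, 1.55 and 0.64 CPM in wild type (-1.09, 95% interval -2.51 to 0.33). The groups overlapped for all 5 genes.

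Type VI collagens, microfibril chains made mostly by mesenchymal cells, were low. Col6a3 was at 3.20, 3.33 and 5.88 CPM in p63 alphaKO, against 6.28, 3.11 and 0.32 CPM in wild type (0.55, 95% interval -0.70 to 1.81). Col6a1 and Col6a2, neighbours on chromosome 10, stood at -0.49 with 6 reads in p63 alphaKO, against 14 in wild type, and at -0.24 with 13 and 20. Col6a4, Col6a5 and Col6a6 had no read.

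The sum of 12 fibroblast markers other than collagens ordered the libraries within each group as these collagens did. The markers summed to 17.81, 44.99 and 11.17 CPM in the p63 alphaKO libraries, against 41.16, 34.81 and 21.29 CPM in those of wild type. The fibrillar and type VI collagens without Col27a1, 16 genes, summed to 23.29, 46.65 and 11.18 CPM in p63 alphaKO, against 58.13, 39.16 and 13.35 CPM in wild type. Vim, which melanocytes also express, made the most of the marker sum, at 14.61, 30.66 and 8.23 CPM in p63 alphaKO, against 26.39, 30.15 and 11.12 CPM in wild type. Pdgfra and Dcn did not follow it: both were highest in wild type replicate 15, at 3.49 and 4.45 CPM. In both sums p63 alphaKO replicate 10 was the highest of its group and wild type replicate 15 the lowest of its own. Of the markers, 4 were tested (Pdgfra, Vim, Twist2 and Dcn), 0 passed, and Lum, Mfap5 and Fap were at 0 reads throughout. The part of fibroblasts in the collagen values was not tested. Melanocyte markers were lowest in the same libraries of each group: 10 of them summed to 558.04, 1036.72 and 233.92 CPM in p63 alphaKO and to 831.69, 762.84 and 311.30 CPM in wild type.

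**Figure D3:**
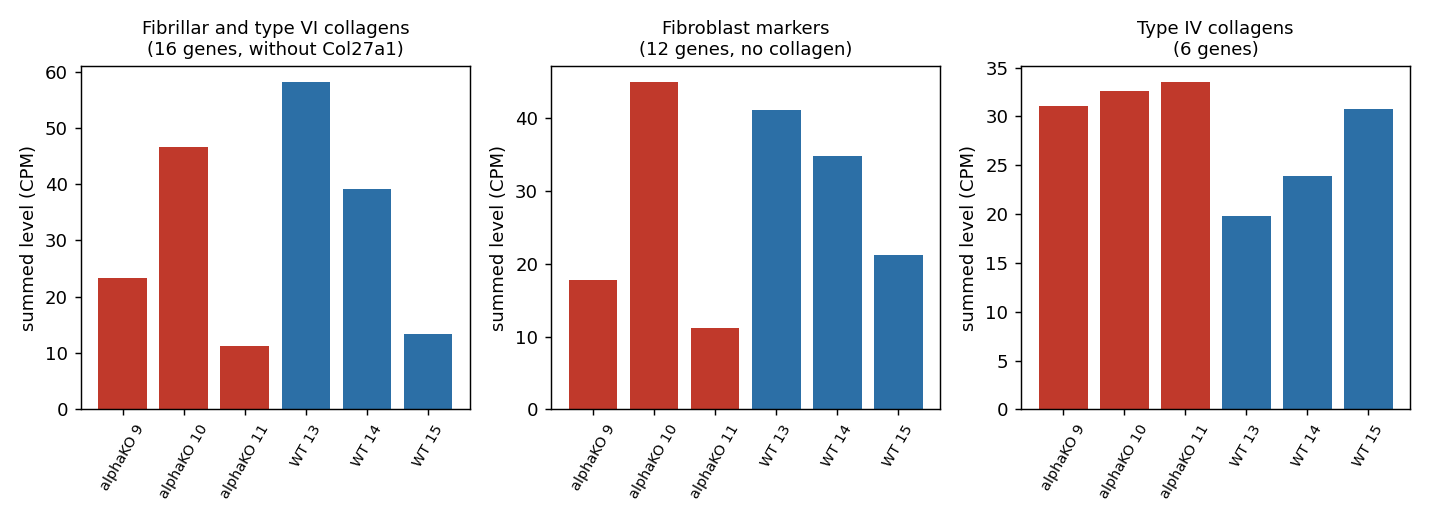
Summed level in CPM (vertical axis, from 0) of the fibrillar and type VI collagens without Col27a1, of the fibroblast markers and of the 6 type IV collagens in each library, p63 alphaKO (red) left of wild type (blue). The first 2 sums are lowest in p63 alphaKO replicate 11 and wild type replicate 15, each within its own group. The type IV sum is at least 31.05 CPM in the p63 alphaKO libraries and at most 30.81 CPM in the wild type libraries. That gap is less than 1 read of any library, and of the type IV genes only Col4a5 separates.

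Fibril-associated collagens were led by Col16a1 and Col12a1, which did not separate. Col16a1 was at 42.01, 35.32 and 26.45 CPM in p63 alphaKO, against 50.90, 31.09 and 27.95 CPM in wild type (log2 fold change -0.06, 95% interval -0.70 to 0.58). Col12a1, which decorates type I fibrils, was at 33.79, 44.65 and 18.81 CPM in p63 alphaKO, against 38.02, 51.60 and 20.96 CPM in wild type (-0.17, 95% interval -0.94 to 0.59). Both were lowest in p63 alphaKO replicate 11 and wild type replicate 15 of their groups. Col9a3 was at 3.20, 5.33 and 12.93 CPM in p63 alphaKO, against 1.89, 6.53 and 0.64 CPM in wild type (1.13, 95% interval -0.13 to 2.38, and 0.14 without both p63 alphaKO replicate 11 and wild type replicate 15). An exon of Col9a3 overlaps 1 of Tcfl5 on the other strand by 234 bases, and without stated strand handling reads of the pair cannot be told apart there.

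Under the minimum of 1 CPM, 19 genes held 0 to 8 reads in p63 alphaKO and 0 to 11 in wild type. Col5a3, a type V chain, had 8 reads in p63 alphaKO, in replicates 9 and 10, and 0 in wild type, with the same lower limit of 2.36. Col26a1 had 0 reads in p63 alphaKO, against 10 in wild type, in replicates 13 and 14, with an exact 95% upper limit of 0.618 on the ratio of rates. For Col11a1, of cartilage, the reads were 2 in p63 alphaKO, against 10 in wild type, and the ratio of rates was 0.277 (exact 95% interval 0.0295 to 1.30). The transmembrane collagen Col23a1 stood at 2 reads in p63 alphaKO, against 11 in wild type, and the ratio of rates was 0.252 (exact 95% interval 0.0271 to 1.15). Col2a1, also of cartilage, had 4 reads in p63 alphaKO, against 11 in wild type. Col9a1, Col11a2, Col14a1, Col20a1, Col25a1 and Col28a1 had 0 to 3 reads per group. Col13a1, Col19a1, Col22a1, Col24a1 and Col9a2 had no read.

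**Figure D4:**
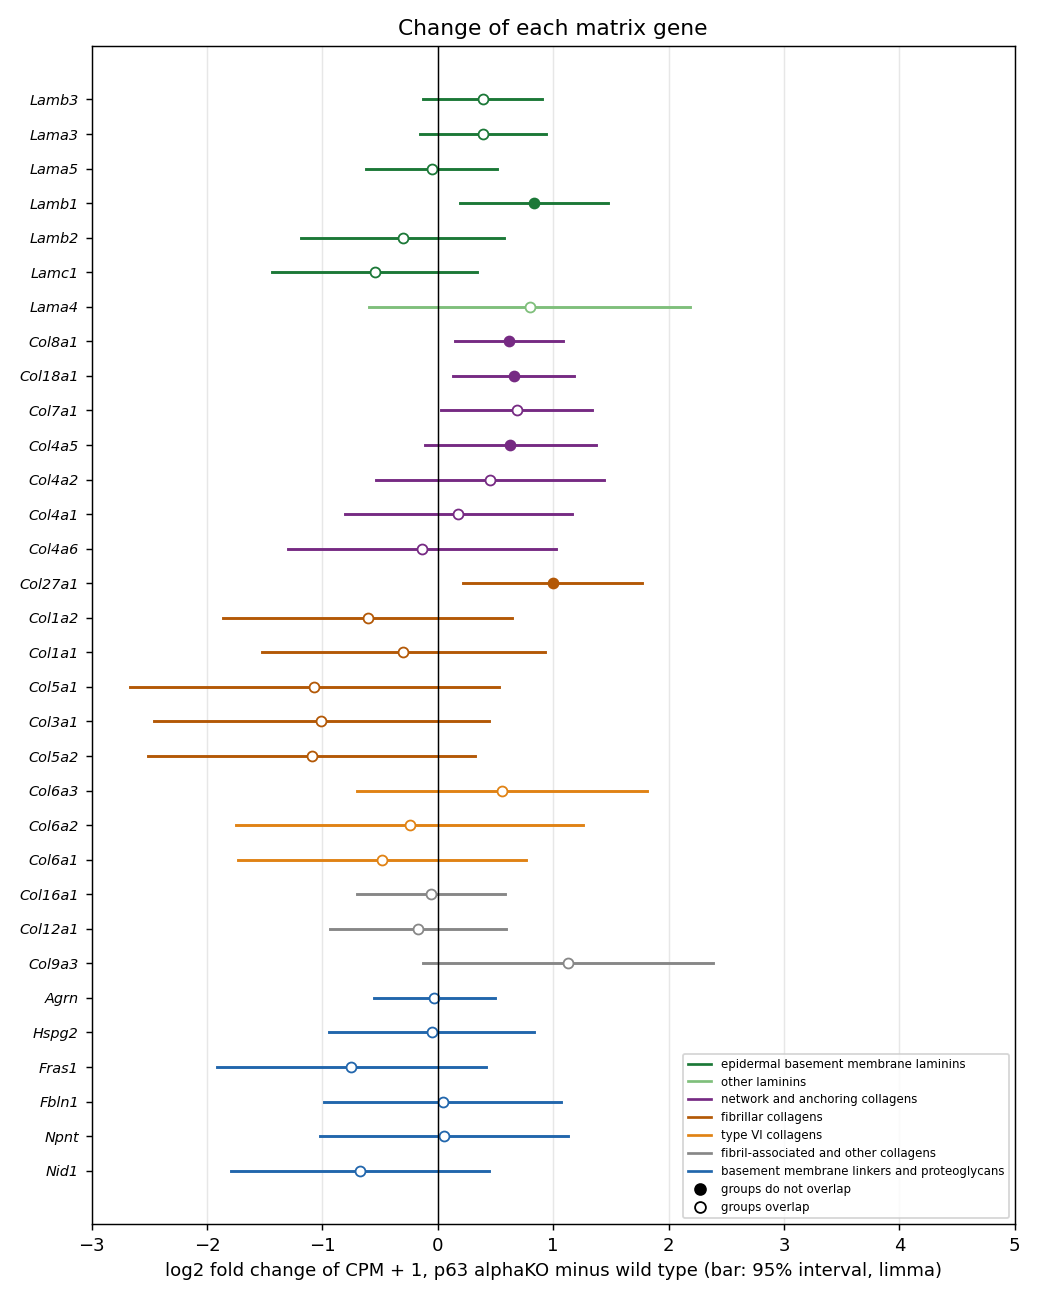
Log2 fold change of CPM + 1, p63 alphaKO minus wild type (horizontal axis), with the 95% interval from limma (bar) for 32 of the tested matrix genes, coloured by role. Filled points mark genes whose libraries do not overlap between the groups, all of them right of 0. Intervals of the genes with few reads are the widest.

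Leaving out 1 library at a time gave 6 further values for each gene. The log2 fold change ranged from 0.65 to 1.05 for Lamb1, 0.45 to 0.73 for Col8a1, 0.46 to 0.84 for Col18a1, 0.47 to 0.82 for Col4a5, 0.64 to 1.24 for Col27a1 and 0.38 to 0.98 for Col7a1. Where groups do not overlap the sign cannot change in such a fit. For the overlapping Lamb3 it ranged from 0.25 to 0.52, and for Lama3 from 0.24 to 0.57. No matrix gene passed the test in any of these fits. Leaving out p63 alphaKO replicate 11 and wild type replicate 15 together gave the lowest adjusted p of any alternative, 0.171 for Col18a1 (log2 fold change 0.64) and 0.206 for Col8a1 (0.65), where 48 of all genes tested passed (0.413%, of which 0.0602% higher and 0.353% lower).

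**Figure D5:**
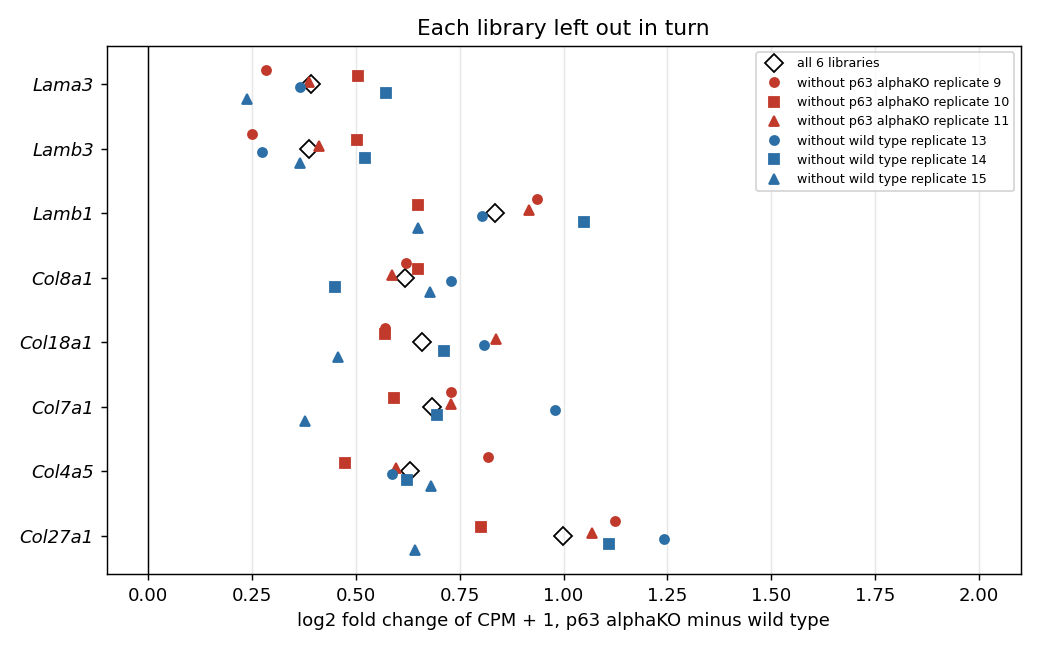
Log2 fold change of CPM + 1, p63 alphaKO minus wild type (horizontal axis), of 8 laminins and collagens with all 6 libraries (open diamonds) and with each library left out (red, a p63 alphaKO library; blue, a wild type library). All points lie above 0; those of Lama3, Col18a1, Col7a1 and Col27a1 are lowest without wild type replicate 15.

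Other genes of matrix assembly and adhesion were also without a call, by limma, edgeR or DESeq2. Of 21 tested genes for collagen folding, modification and crosslinking 13 lay higher and 8 lower (median log2 fold change 0.28), 2 of them at an unadjusted p under 0.05. That is 9.52% at such a p and 61.9% higher, against 6.36% and 50.7% of all genes tested. P3h1, a prolyl 3-hydroxylase, was at 7.31, 7.0 and 4.70 CPM in p63 alphaKO, against 4.40, 1.24 and 0.64 CPM in wild type (log2 fold change 1.42, SE 0.53, limma adjusted p = 0.729). Plod2, a lysyl hydroxylase that sets collagen crosslinks, was at 34.25, 44.65 and 44.08 CPM in p63 alphaKO, against 26.39, 29.22 and 23.51 CPM in wild type (0.61, SE 0.27, limma adjusted p = 0.767). The groups did not overlap for either gene. Of the tested genes of this list 14.3% did not overlap, against 11.5% of all genes tested.

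Collagen and laminin receptors had 4 of 12 tested members higher and 8 lower (median -0.05). At an unadjusted p under 0.05 there were 0 of them, against 6.36% of all genes tested. Itga2, a subunit of a collagen receptor, was at 5.94, 13.00 and 12.34 CPM in p63 alphaKO, against 8.17, 3.42 and 3.49 CPM in wild type (0.94, limma adjusted p = 0.778). Ddr2, a receptor for fibrillar collagen, was at 3.20, 1.33 and 2.35 CPM in p63 alphaKO, against 4.08, 5.6 and 4.13 CPM in wild type (-0.80, limma adjusted p = 0.841). Ddr2 did not overlap between the groups and Itga2 did. Of the tested receptors 16.7% did not overlap, against 11.5% of all genes tested. The 6 hemidesmosome core genes lay 3 higher and 3 lower (median -0.02), also 0 at an unadjusted p under 0.05, with Itgb4, a laminin-binding integrin subunit of the hemidesmosome, at -0.43 (limma adjusted p = 0.881) and Cd151 at 0.21 (0.936).

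Other matrix glycoproteins had 8 of 18 tested members higher and 10 lower (median -0.12), 1 higher and 2 lower at an unadjusted p under 0.05. That is 16.7% of the list, against 6.36% of all genes tested (3.01% higher and 3.35% lower). Tgfbi, a collagen-binding adhesion protein, was at 9.13, 5.00 and 5.29 CPM in p63 alphaKO, against 14.14, 15.85 and 13.02 CPM in wild type (-1.08, limma adjusted p = 0.684). Sparc, which binds collagen, was at 89.50, 98.64 and 121.67 CPM in p63 alphaKO, against 66.30, 60.31 and 72.74 CPM in wild type (0.62, limma adjusted p = 0.729). Neither gene overlapped between the groups. In this list 22.2% of the tested genes did not overlap, 2 higher and 2 lower, against 11.5% of all genes tested. TGF-beta genes that regulate matrix had 6 of 9 tested members higher and 3 lower (median 0.11), 1 of them (11.1%) lower at an unadjusted p under 0.05, with Tgfbr2, a TGF-beta receptor, at -0.66 (limma adjusted p = 0.758).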

How the data were processed

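The deposited table holds CPM values (counts per 1000000 reads) made by the authors, 1 column per library. Per the submitters' processing notes, STAR, HTSeq and mm10 were used; their versions, the annotation and strand handling are not given here. The unit was read from the table, where 99.97% to 99.99% of the values above 0 in a library fell on whole reads (tolerance 0.1 read). Reads were recovered by division by that value. A mean of 1 CPM or more left 11716 genes, tested with limma 3.58.1 (R 4.3.3) on log2(CPM + 1), mean-variance trend, two-sided, Benjamini-Hochberg adjustment, threshold 0.05. edgeR 4.0.16 and DESeq2 1.42.0 on the recovered reads were alternatives, besides pseudocounts of 0.5 and 5, other filters and scalings, and leaving out libraries. The test was also run on simulated data, with changes set only in genes that averaged at least 5 CPM. Its outcome is not given here, and it does not cover changes in lower genes. GENCODE vM21 (GRCm38, mm10) gave the coordinates; all 63 symbols were found once. Promoters came from RefSeq (GRCm38.p6), where 46 of 63 matched. Every matrix gene with a mean of at least 1 CPM may be named, and from each list the 2 genes of smallest p; 1 of each kind is not reported here. Members and lists were chosen with earlier results of these data known. PCR reads without molecular identifiers are not independent, so intervals on reads cover counting error only.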

Additional observations from a re-analysis of the deposited data

How the results depend on the processing

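No paired analysis was possible because the labels name no pairs: litter and culture batch are not given, and the groups share no replicate numbers. In 17 alternatives no matrix gene passed the threshold. The count over all genes, 5, was 2 with a pseudocount of 0.5, 3 with 5, 1 without a filter, 2 with a minimum mean of 5 CPM, 0 without the trend (827 genes at an unadjusted p under 0.05), 2 by edgeR, 18 by DESeq2, 48 without p63 alphaKO replicate 11 and wild type replicate 15, and 2 to 13 leaving out 1 library. Separated matrix genes numbered 12 without those 2 libraries (all genes 40.4%) and 6 to 12 leaving out 1 (all genes 17.5% to 25.1%). The median over matrix genes was 0.39 with a minimum mean of 5 CPM, which keeps 21 of them. That of network and anchoring collagens was 0.49 with a pseudocount of 5, 0.34 without a filter, and 0.45 to 0.59 leaving out 1 library. Lama4 was at 1.58 by DESeq2. Of the 33 genes, 19 kept their direction throughout. Among them are the 6 whose groups do not overlap, for which leaving out libraries cannot change the sign. For the other 14 the log2 fold change crossed 0, in no case past the threshold, and the cause was not tested. Fbln1 was at -0.012 with a pseudocount of 5, -0.16 by edgeR and -0.16 by DESeq2. Without those 2 libraries Lamb2 was at 0.0057, Col6a3 at -0.36 and Agrn at 0.098. Leaving out 1 library, the ranges were -0.52 to 0.16 for Col12a1, -1.26 to 0.22 for Col1a2, -0.65 to 0.17 for Lamb2, -0.13 to 1.10 for Col6a3, -0.85 to 0.35 for Col1a1, -0.92 to 0.32 for Col6a2, -0.47 to 0.38 for Hspg2, -0.22 to 0.20 for Col16a1, -0.056 to 0.35 for Col4a1, -0.25 to 0.54 for Npnt, -0.16 to 0.11 for Lama5, -0.34 to 0.48 for Fbln1, -0.51 to 0.29 for Col4a6 and -0.15 to 0.10 for Agrn. Depth limits the low genes: 3 reads over a group are 0.436 CPM in p63 alphaKO and 0.314 CPM in wild type.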
